A study of Solanum lycopersicum with 12 samples.

Results

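The genes described here are 35 tomato loci of the AP2/ERF superfamily, listed by identifier as transcription factors of the ERF and CBF/DREB classes. Of these, 34 have a row among the 34688 loci measured, and Solyc01g065980 was not analysed here. The 23 that average 10 or more normalized counts over the 6 libraries of root or of shoot are reported with values, and 11 lie below that limit in both tissues. The sources used here pair no identifier with a gene name or a protein, so the family label could not be checked against sequence, and members are called by identifier, which carries the chromosome and a running number.

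The 12 libraries form 4 groups of 3, which are PA root, mock root, PA shoot and mock shoot. All came from seedlings of the cultivar Moneymaker, whose leaves were sprayed on days 7 and 14 after transplantation and which were harvested on day 15. The spray of the PA groups held 300 µM piperonylic acid (PA), a known inhibitor of cinnamate 4-hydroxylase in the phenylpropanoid pathway, with 0.1% Tween 20. The mock groups received a matching mock spray. Each library was made from a pool of 4 plants.

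AP2/ERF proteins are plant transcription factors that share a DNA-binding domain called AP2. Proteins of the ERF class are best known as the last step of ethylene signalling, in which stabilised EIN3-type factors switch on ERF genes, and many of them also respond to wounding, jasmonate and pathogens. CBF/DREB proteins bind cold-responsive and dehydration-responsive DNA elements, and in Arabidopsis several are known for rapid, short-lived induction by cold. The sources used here do not say which member belongs to which class.

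Messenger RNA was read from the 3′ end, so a transcript yields reads in proportion to its copies and not to its length. A normalized count is a number of reads divided by 1 size factor for its library. Libraries held 6065291 to 7386030 reads in PA root, 6158777 to 6262275 in mock root, 5465342 to 6736313 in PA shoot and 4214169 to 7127537 in mock shoot. In shoot 1 library stood apart, and in root 1 PA library lay nearest to the mock roots. On the first principal component of root libraries, PA root replicate 3 lay at 3.88, between the other PA roots at 18.7 and 30.7 and the mock roots at -25.0 to -9.44. On that of shoot libraries, mock shoot replicate 1 lay at 51.1, against -22.4 to 3.61 for the other 5. Markers of the other tissue were low in every library. These markers were picked by their difference between the mock tissues, so their low share in the mock libraries follows from that choice. Only the PA libraries were not used to pick them. Shoot markers (213 loci) took 0.1101 to 0.203% of reads in PA roots and 0.106 to 0.139% in mock roots, which is 0.557 to 1.03% and 0.539 to 0.706% of their share in shoots. Root markers (98 loci) took 0.0168 to 0.0233% in PA shoots and 0.0134 to 0.0158% in mock shoots.

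**Figure D1:**
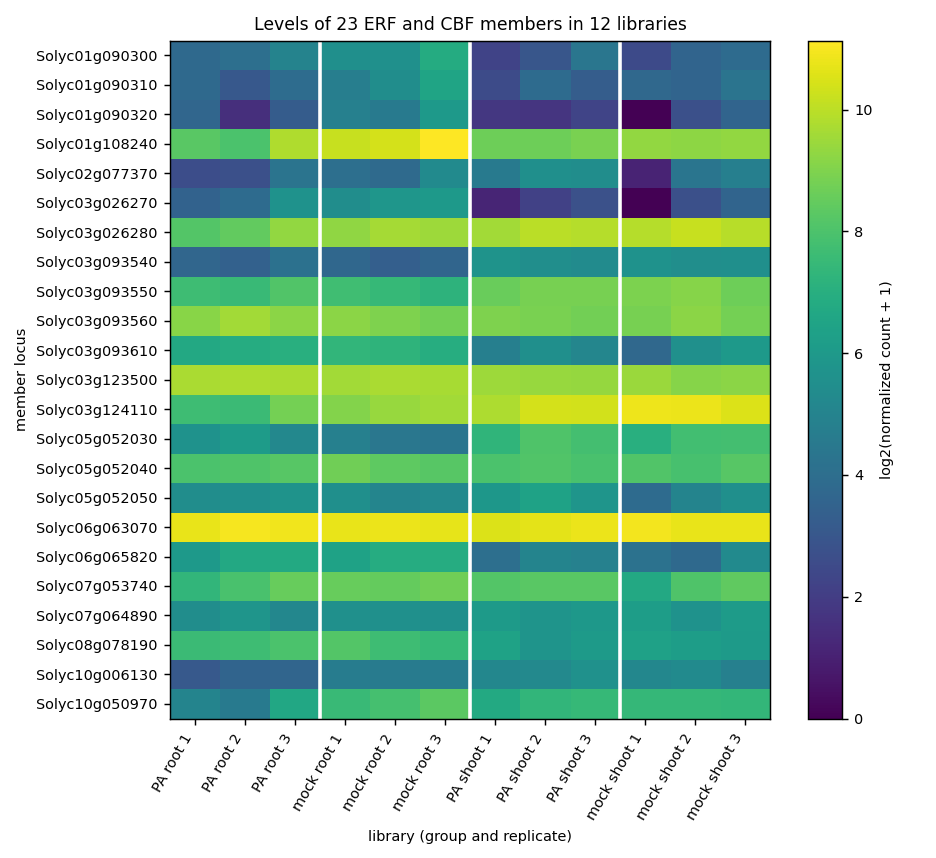
Level of each of the 23 reported members (rows) in each of the 12 libraries (columns), as log2(normalized count + 1) on the colour scale. Solyc06g063070 was high in all 12 libraries, while Solyc01g090320 had 0 reads in mock shoot replicate 1 and Solyc10g050970 was lowest in PA root replicates 1 and 2.

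The members differed widely in abundance. The most abundant was Solyc06g063070, with 1723, 2035 and 1925 normalized counts in PA roots and 1745, 1802 and 1704 in mock roots. In shoots it had 1498, 1634 and 1806 normalized counts with PA and 1973, 1739 and 1757 with mock. The groups overlapped in both tissues. Its log2 difference was 0.11 in root (95% interval -0.07 to 0.30) and -0.15 in shoot (-0.38 to 0.08). Solyc03g123500 had 845, 874 and 847 normalized counts in PA roots, 760, 837 and 812 in mock roots, 715, 683 and 653 in PA shoots and 711, 557 and 592 in mock shoots. All mock roots lay above all mock shoots for this locus (log2 difference 0.38, limma adjusted p = 0.0113), and all PA roots above all mock roots. Together the 34 members took 0.0927, 0.105 and 0.128% of reads in PA roots, against 0.139, 0.149 and 0.163% in mock roots. In shoots they took 0.0943, 0.114 and 0.114% with PA, against 0.113, 0.125 and 0.118% with mock. The PA roots lay below all mock roots in this share, and the shoot groups overlapped. As a sum of normalized counts, the members reached 5140, 5854 and 7182 in PA roots, against 7469, 7880 and 8788 in mock roots. The sum was 6322, 7455 and 7462 in PA shoots, against 8068, 8221 and 7775 in mock shoots. On this scale the PA libraries lay below all mock libraries in both tissues. Such sums and shares are weighted to the abundant members. The mean sum in root was 6059 with PA and 8046 with mock, where Solyc01g108240 alone had 490 and 1598. In shoot the mean sum was 7080 and 8022, where Solyc03g124110 alone had 1171 and 1704. The median log2 difference of the tested members was -0.36 in root and -0.07 in shoot. In whole-organ samples such as these, fewer cells that express a gene and less RNA per cell cannot be told apart.

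The 11 members below the limit included all 5 members of both chromosome 9 arrays. An array here means members of 1 chromosome whose numbers lie within 100 of each other; 21 members form 7 arrays and 13 of the loci in the table are single. Solyc09g089930 had 16 reads over all 6 root libraries and 22 over all 6 shoot libraries. Solyc12g056590, the member closest under the limit, had a mean of 5.08 normalized counts in root and 0.562 in shoot. The next below it was Solyc09g089930, with a mean of 4.14 in shoot. The members closest above the limit were Solyc01g090320, with a root mean of 22.6, and Solyc02g077370, with a shoot mean of 26.5. By the higher of its root and shoot means, no member lay between 5.08 and 22.6 normalized counts. Solyc01g090370 had 1 read in all 12 libraries, and Solyc08g078170 had 5 reads in roots and 0 in shoots. A count of 0 allows up to 3 reads in a library, or 2.28 to 4.69 normalized counts, and this covers counting error only.

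Mock roots and mock shoots were compared first, to set out where each member is expressed without PA. Of the 23 members tested, 11 were higher in mock root and 5 were higher in mock shoot, by limma at an adjusted p below 0.05. Among all 15317 tested loci, 33.6% were higher in mock root and 32.5% in mock shoot, so a difference between tissues was the rule in the whole table too. Groups did not overlap at 12 members higher and 7 lower in mock root, where 36.8% and 35.1% of all loci were apart in these ways. The median log2 difference, root minus shoot, was 0.46 over these members and 0.02 over all tested loci.

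Several members were several-fold higher in root. Solyc06g065820 had 84.0, 119 and 117 normalized counts in mock roots, against 17.2, 12.9 and 39.0 in mock shoots. Its log2 difference was 2.30 ± 0.37 (SE, limma adjusted p = 0.000378). Solyc03g093610 had 158, 151 and 123 in mock roots, against 12.6, 47.0 and 64.04 in mock shoots, a log2 difference of 2.04 ± 0.49 (SE, limma adjusted p = 0.00446). Solyc08g078190, the one abundant member of the chromosome 8 array, had 287, 201 and 173 in mock roots, against 81.3, 71.8 and 65.6 in mock shoots (log2 difference 1.56 ± 0.19, SE). No mock root overlapped a mock shoot for any of these 3 loci. The largest estimate, 3.68 ± 0.76 (SE, limma adjusted p = 0.00201), belonged to Solyc03g026270, with 42.9, 56.7 and 63.6 normalized counts in mock roots against 0, 5.53 and 10.9 in mock shoots. This locus, Solyc01g090320 and Solyc01g090300 averaged under 10 in mock shoots and entered the test through their root libraries only. Such entry favours a higher value in root, and these loci are part of the count and median given above. Without mock shoot replicate 1, the library that stood apart, the log2 difference was 2.63 for Solyc03g026270, 1.99 for Solyc01g090320 and 1.365 for Solyc03g093610, and all 3 still passed. In that fit 9 members were higher in mock root and 5 in mock shoot, where 65.8% of all tested loci were called in either direction.

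Solyc05g052030 had the strongest preference for shoot, with 28.0, 20.3 and 19.2 normalized counts in mock roots and 128, 216 and 225 in mock shoots. This is a log2 difference of -3.00 ± 0.25 (SE, limma adjusted p = 4.59e-06). Solyc03g093550 had 213, 172 and 144 in mock roots, against 492, 547 and 408 in mock shoots (log2 difference -1.45 ± 0.16, SE). Solyc03g124110 had 530, 675 and 761 in mock roots, against 1864, 1769 and 1478 in mock shoots (-1.39 ± 0.14, SE). It was among the 3 most abundant members in shoot, with Solyc06g063070 and Solyc03g026280.

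**Figure D2:**
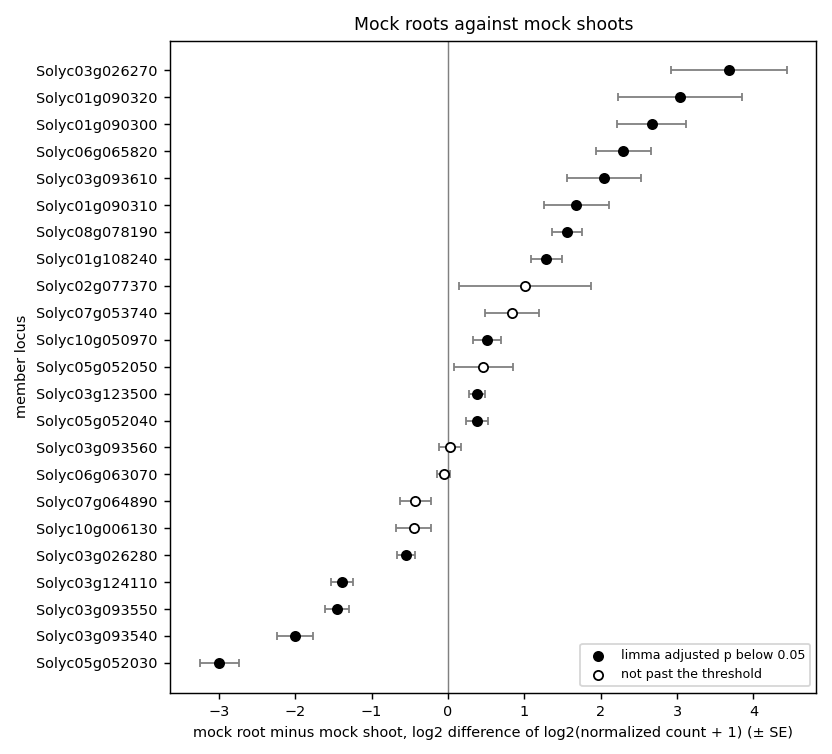
Mock root minus mock shoot for the 23 reported members, as a log2 difference with its standard error, sorted from the largest at the top. Filled points pass an adjusted p of 0.05; 11 lie right of 0 and 5 left of it.

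Members of an array were in some cases higher in the same tissue and in others not, read against the whole table, where about as many loci were higher in each tissue. The 3 measured members of the chromosome 1 array were all higher in mock root, each with an adjusted p below 0.05 by limma. The log2 difference was 2.67 for Solyc01g090300, 1.68 for Solyc01g090310 and 3.04 for Solyc01g090320. Solyc01g090300 and Solyc01g090320 entered the test through their root libraries only, so the filter favoured this shared direction. In the chromosome 5 array, Solyc05g052030 was higher in shoot, Solyc05g052040 was higher in root by a log2 difference of only 0.38 ± 0.15 (SE, limma adjusted p = 0.0456), and Solyc05g052050 did not pass (0.46 ± 0.39, SE, limma adjusted p = 0.319). The call for Solyc05g052040 was lost with no filter (limma adjusted p = 0.0591) and without mock root replicate 1 or 2 (0.17 and 0.0751) or mock shoot replicate 1 or 2 (0.0635 and 0.156). On chromosome 3, Solyc03g093540 (-2.00) and Solyc03g093550 (-1.45) were higher in shoot and Solyc03g093610 (2.04) in root, while Solyc03g093560 was at 0.03 with a 95% interval of -0.29 to 0.34. The adjacent pair Solyc03g026270 and Solyc03g026280 also split. The first was higher in root, and the second was higher in shoot with 616, 792 and 722 normalized counts in mock roots, against 954, 1177 and 982 in mock shoots (log2 difference -0.55 ± 0.12, SE, limma adjusted p = 0.00292). The sources used here do not say how a read that matches several similar loci was counted, so values of neighbouring family members are uncertain to that extent.

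The next comparison asked what the leaf spray did to these genes in roots. With PA, 6 of the 23 members fell in root and 0 rose, by limma at an adjusted p below 0.05. At an unadjusted p below 0.05, 12 were lower and 2 higher, where 12.65% of all tested loci passed in either direction. At the adjusted threshold, the background was 1.11% of 14645 tested loci lower and 0.478% higher. EdgeR on whole reads called 4 lower and 0 higher, and DESeq2 4 lower and 1 higher. Of all tested loci, edgeR called 1.54% and DESeq2 2.66% in either direction. Of the 6 called by limma, edgeR missed Solyc01g090300 (edgeR adjusted p = 0.0543) and Solyc01g108240 (0.0567). DESeq2 missed Solyc01g108240 (DESeq2 adjusted p = 0.143), Solyc03g124110 (0.087) and Solyc10g006130 (0.0792). It called Solyc01g090320 lower (0.000388) and Solyc05g052030 higher (0.022), neither of which limma called. The median log2 difference was -0.36 over the members and 0.03 over all loci, and 16 of the 23 estimates were below 0, against 43.7% of all loci. The 2 members Solyc01g090320 and Solyc02g077370 passed the limit in root only through their mock libraries, which favours a lower value with PA.

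The locus with the lowest estimate was Solyc10g050970. It had 31.6, 23.0 and 101 normalized counts in PA roots, against 187, 228 and 323 in mock roots. The log2 difference was -2.48 ± 0.42 (SE, limma adjusted p = 0.0206), which is 5.60-fold lower. Replicates 1 and 2 with PA were far below every mock root, and replicate 3 was between. Solyc01g108240, the second most abundant member in root, had 311, 254 and 905 in PA roots, against 1184, 1370.2 and 2241 in mock roots. Its log2 difference was -1.89 ± 0.38 (SE, limma adjusted p = 0.0374). The same library order was seen here, with replicate 3 the highest within each group. Its replicates varied well beyond counting error, with a variance 314 times that of Poisson counts in PA roots and 229 times in mock roots.

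Solyc03g124110 had 201, 192 and 443 normalized counts in PA roots, against 530, 675 and 761 in mock roots. The log2 difference was -1.33 ± 0.26 (SE, limma adjusted p = 0.0338), and the groups did not overlap. Solyc10g006130 had the closest replicates of the 6, with 7.69, 11.1 and 11.4 normalized counts in PA roots and 24.5, 23.7 and 24.4 in mock roots. These stand for 9, 12 and 15 reads with PA and 28 in each mock library, so counting error alone is large here. Its log2 difference was -1.21 ± 0.27 (SE), and its adjusted p of 0.0496 from limma was just inside the threshold. The call held in only 6 of the 16 other settings run.

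The other 2 members that fell are next to each other on chromosome 1. Solyc01g090310 had 12.8, 7.37 and 14.5 normalized counts in PA roots, against 26.2, 42.3 and 89.8 in mock roots (log2 difference -1.97 ± 0.40, SE, limma adjusted p = 0.038). Solyc01g090300 had 12.8, 15.7 and 30.5 in PA roots, against 45.5, 47.4 and 114 in mock roots (-1.72 ± 0.38, SE, limma adjusted p = 0.0483). Mock root replicate 3 was the highest of the 6 root libraries for both loci. The third measured locus of this array, Solyc01g090320, did not pass, with 12.0, 1.84 and 8.38 in PA roots, against 28.0, 22.0 and 63.6 in mock roots (-2.32 ± 0.54, SE, limma adjusted p = 0.0588). All 3 had groups that did not overlap. Summed over the array, the level was 37.6, 24.9 and 53.3 normalized counts in PA roots, against 99.7, 112 and 268 in mock roots. The other loci of the table within 100 identifier numbers of this array numbered 22. Of these, 14 were tested in root and 0 were called, at an adjusted p below 0.05 from limma. Among all 14645 tested loci 1.58% were called, so 0 of 14 is near that share.

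**Figure D3:**
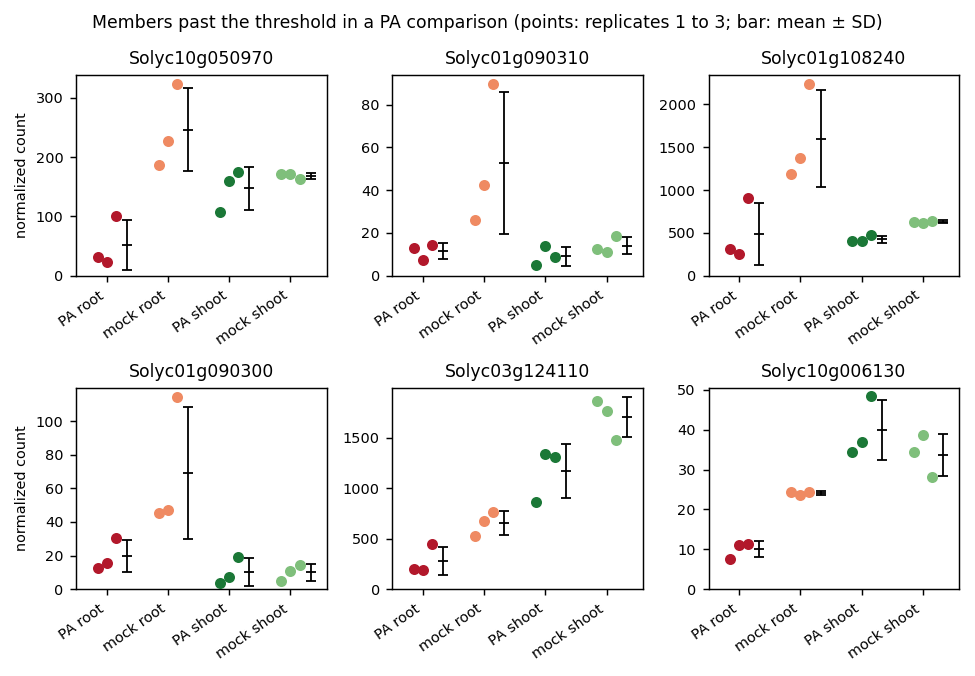
Normalized counts of the 6 members past the threshold in a PA comparison, by group (PA root, mock root, PA shoot, mock shoot), with 1 point per replicate in the order 1 to 3 and a bar for the mean ± SD (n = 3). In root, every PA point lies below every mock point in all 6 panels.

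Around all 7 arrays, 64 neighbouring loci were tested in root, where 1.11% of all tested loci were lower with PA and 0.478% higher. Of the 64, 2 were lower with PA, 3.12% of those tested, and 0 were higher. These 2 were Solyc03g026230, with 1.71, 5.53 and 7.61 normalized counts in PA roots against 22.7, 24.5 and 26.1 in mock roots, and Solyc08g078090, with 260.5, 235 and 330.5 in PA roots against 409, 398 and 439 in mock roots. The first is close in number to Solyc03g026270 and Solyc03g026280. Neither of those members passed in root. Solyc03g026270 had 10.2, 13.8 and 50.3 in PA roots, against 42.9, 56.7 and 63.6 in mock roots (log2 difference -1.42, limma adjusted p = 0.167). Solyc03g026280 had 279, 347 and 642 in PA roots, against 616, 792 and 722 in mock roots (-0.83, limma adjusted p = 0.117). For both, PA root replicate 3 reached into the mock range while replicates 1 and 2 were below it.

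One member had groups fully apart in the other direction with a large estimate. Solyc05g052030 had 49.5, 68.2 and 35.8 normalized counts in PA roots, against 28.0, 20.3 and 19.2 in mock roots. The log2 difference was 1.12 ± 0.26 (SE), and the adjusted p of 0.0556 from limma missed the threshold. Solyc05g052030 passed in 5 of the 16 other settings run, DESeq2 among them (DESeq2 adjusted p = 0.022). This locus was 7.99-fold higher in mock shoot than in mock root. Shoot markers ran to 0.203% of reads in PA roots against 0.139% in mock roots, where they had been picked for a low level. Their part in the result was not tested. Groups did not overlap at 8 members lower with PA and 2 higher, where 7.26% of all loci were lower and 10.2% higher in this way. The second of those higher was Solyc03g123500, by a log2 difference of 0.09 with a 95% interval of -0.08 to 0.27. The 17 members that did not pass had log2 differences of -2.32 to 1.12.

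PA root replicate 3 was the highest of the 3 PA roots at 17 of 23 members (73.9%), against 34.2% of all loci, and PA root replicate 1 was the lowest at 14 (60.9%), against 32.0%. The root calls depended on which libraries were used. Without PA root replicate 3, 10 members fell and 1 rose, Solyc05g052030 (limma adjusted p = 0.013), while 3.53% of all loci were called. Without PA root replicate 1 or 2, or mock root replicate 2 or 3, limma called 0 of the 23. At an unadjusted p below 0.05 there were then 9, 10, 12 and 11 members lower, and 0.0956 to 0.539% of all loci were called. In these 4 fits the estimates of the 6 members stayed below 0, from -2.52 to -2.07 for Solyc10g050970, from -1.97 to -1.53 for Solyc01g108240 and from -1.30 to -1.12 for Solyc03g124110. Without PA root replicate 3 the same loci were at -3.10, -2.45 and -1.72.

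**Figure D4:**
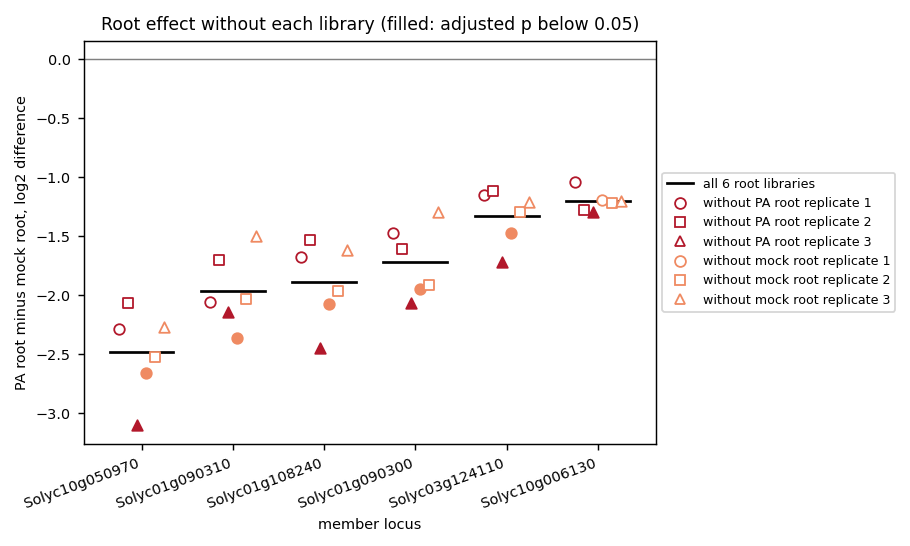
Root effect of PA (PA root minus mock root, log2 difference) for the 6 members that fell, with all 6 libraries (line) and without each library in turn (symbols). Filled symbols have a limma adjusted p below 0.05, which occurred without PA root replicate 3 for all 6 and without mock root replicate 1 for 5 of them.

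The shoots, whose leaves received the spray, were compared in the same way. Of the 20 members tested, 1 fell with PA and 0 rose (limma, adjusted p below 0.05), where 0.655% of 14505 tested loci fell and 0.924% rose. At an unadjusted p below 0.05, 2 members were lower and 2 higher, where 14.15% of all tested loci passed in either direction. EdgeR also called 1 lower and 0 higher, and DESeq2 2 lower and 1 higher. Of all tested loci, edgeR called 1.63% and DESeq2 2.53% in either direction. The median log2 difference was -0.07 over the members and -0.02 over all loci.

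The member that fell was Solyc01g108240. It had 406, 401 and 475 normalized counts in PA shoots, against 633, 611 and 644 in mock shoots. The log2 difference was -0.56 ± 0.11 (SE, limma adjusted p = 0.0196). All PA shoots lay below all mock shoots, and the mock shoots were within counting error of each other, with a variance 0.402 times that of Poisson counts. The call was lost without PA shoot replicate 1 or 2 or mock shoot replicate 2 (limma adjusted p = 0.109, 0.133 and 0.0632) and with all 12 libraries in one fit (0.481). Without mock shoot replicate 1 it held (limma adjusted p = 0.0108). By limma in the main fits, Solyc01g108240 was the one member past the threshold in both tissues. Its root call was lost with edgeR (edgeR adjusted p = 0.0567), with DESeq2 (DESeq2 adjusted p = 0.143) and with a filter of 50 (limma adjusted p = 0.0513).

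Some shoot differences were large but did not pass in the main limma fit. Solyc03g124110 had 862, 1343 and 1309.5 normalized counts in PA shoots, against 1864, 1769 and 1478 in mock shoots (log2 difference -0.56 ± 0.16, SE, limma adjusted p = 0.109). Solyc05g052050 had 58.9, 84.2 and 55.3 in PA shoots, against 13.7, 31.3 and 45.3 in mock shoots (1.23 ± 0.36, SE, limma adjusted p = 0.119). Groups of these 2 loci did not overlap, and DESeq2 called both (DESeq2 adjusted p = 0.0384 and 0.0382). Without mock shoot replicate 3, limma also called Solyc05g052050 (limma adjusted p = 0.0264). Solyc02g077370 had 23.3, 46.1 and 42.7 in PA shoots, against 1.15, 19.3 and 26.6 in mock shoots (1.79 ± 0.73, SE, limma adjusted p = 0.285), and there the groups overlapped. For both loci higher with PA, the lowest value was in mock shoot replicate 1, the library that stood apart. Without it, the log2 difference of Solyc05g052050 was 0.77 and that of Solyc02g077370 was 0.64. Solyc07g053740 was of the same kind, with 286, 315 and 307 in PA shoots, against 104, 264 and 344 in mock shoots. Its log2 difference of 0.51 was 0.01 without mock shoot replicate 1. In all, groups were apart at 2 members lower and 1 higher, where 11.6% and 8.15% of all loci were.

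**Figure D5:**
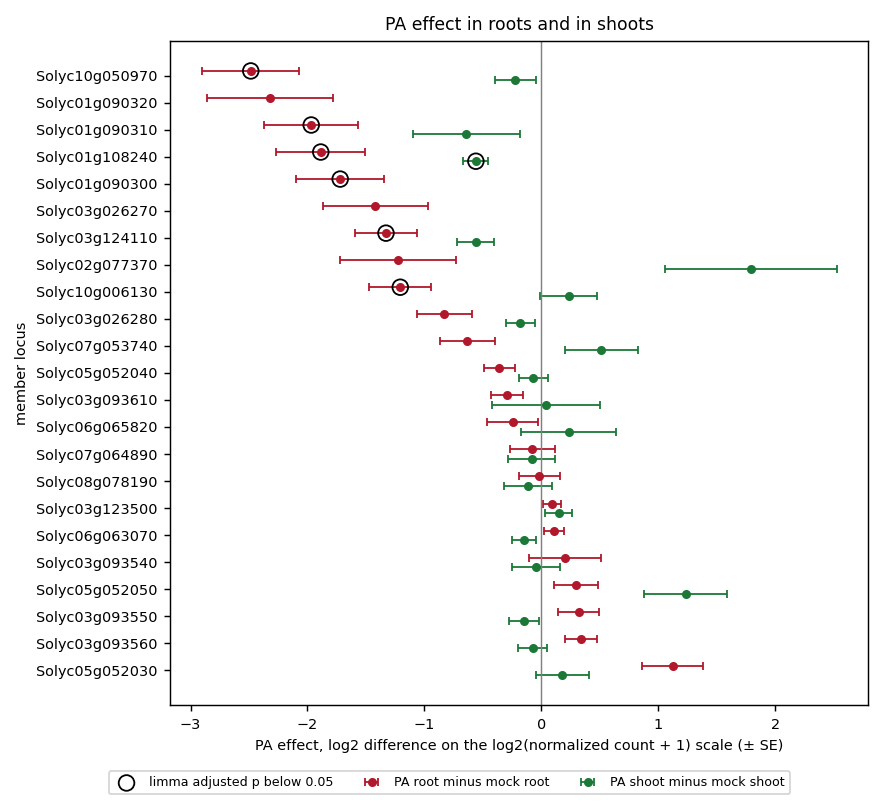
PA effect on each of the 23 members in root (PA root minus mock root) and in shoot (PA shoot minus mock shoot), as log2 differences with standard errors, sorted by the root effect. Circled points pass an adjusted p of 0.05, 6 in root and 1 in shoot; 3 members under the filter in shoot have a root value only.

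An interaction term over the 12 libraries tested, for each member, the root effect of PA against the shoot effect. Of the 20 members that reached the limit in both tissues, 0 passed in limma, where 0.377% of 13010 loci did. At an unadjusted p below 0.05 there were 6, where 12.13% of all tested loci passed. At the adjusted threshold edgeR and DESeq2 also gave 0, where 0.584% and 1.36% of all tested loci passed. The smallest adjusted p belonged to Solyc10g006130, whose log2 effect was -1.21 in root and 0.23 in shoot, a difference of -1.44 ± 0.34 (SE, limma adjusted p = 0.0865). Its shoot levels were 34.3, 36.9 and 48.5 normalized counts with PA and 34.4, 38.7 and 28.1 with mock. For Solyc10g050970 the effects were -2.48 in root and -0.22 in shoot, a difference of -2.26 ± 0.54 (SE, limma adjusted p = 0.0872). Its shoot levels were 107, 160.4 and 176 with PA and 172, 171 and 162 with mock. For Solyc01g108240 the difference of -1.33 ± 0.48 (SE) had a limma adjusted p of 0.266. Without PA root replicate 3, 4 members passed, all with the root effect below the shoot effect. They were Solyc10g050970, Solyc01g108240, Solyc03g124110 and Solyc03g026280. In that fit 1.23% of 13000 loci passed, 135 with the root effect lower and 25 with it higher, so this direction prevailed in the whole table too. Solyc01g090300, Solyc01g090320 and Solyc03g026270 had shoot means of 9.95, 4.18 and 4.49 normalized counts and were not tested for PA in shoot.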

How the data were processed

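Per the labels' protocols, libraries were made from 2 µg of RNA with a QuantSeq 3′ kit. The tools listed in the submitters' processing notes are STAR 2.6.1d, Trimmomatic 0.38, FastQC 0.11.8 and DESeq2; the read counter and genome build are not given in the sources read. The authors deposited a normalized signal per locus, called normalized counts, and in each column 100% of values above 0 were whole multiples, within 0.01, of the smallest, so whole reads were recovered. Groups and replicate numbers came from sample titles. Pools are not further described, so the p-values reflect only how these samples vary, which may be technical.

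Tests were two-sided, on the whole table, with limma 3.58.1 (R 4.3.3, intensity trend) on log2(value + 1), which understates changes of low loci. Loci entered with a mean of at least 10 over the libraries fitted, or in each tissue for the interaction. P-values were adjusted by Benjamini-Hochberg over all loci tested, with a threshold of 0.05. Whole reads were also tested with edgeR 4.0.16 and DESeq2 1.42.0. The main limma model of each comparison was run on simulated counts with 200 changed loci. The alternative fits were not simulated, and no recovery rate is given here. Tissue markers were loci at least 64-fold higher in 1 mock tissue with a mean of at least 500 there.

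The members and lists were chosen with earlier results of these data known. All 34 members are named or counted; those past a threshold, the 3 of highest mean per tissue, the 3 with the largest tissue difference each way at a tissue mean of at least 50 and the 2 nearest the limit on each side have values per library, and further members were added after their values were seen. Solyc identifiers matched 0 entries of the reference table. Alternatives were pseudocounts of 0.5 and 5, no filter or one of 50, quantile and TMM scaling, sample quality weights, one fit over all 12 libraries, edgeR, DESeq2, the replicate number as a block, and leaving out each library. Same-numbered PA and mock libraries deviated together with correlations of 0.0335 to 0.103 in shoot and -0.0706 to 0.109 in root. Other pairs had -0.123 to 0.0368 and -0.18 to 0.12. The labels state no paired design, so numbers were not treated as pairs in the main fits. Between mock root and mock shoot, same numbers had 0.0536 to 0.104 and other pairs -0.0964 to 0.0326, so every same-numbered pair lay above all others. Between PA root and PA shoot, same numbers had -0.0455 to 0.0535 and other pairs -0.083 to 0.0739. Whether roots and shoots of 1 number share plants is not known, and the fits treated them as independent. Figures used matplotlib 3.10.9.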

Additional observations from a re-analysis of the deposited data

How the results depend on the processing

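In root, the 6 members called were 2 with a filter of 50, where 13 members were tested, and 0 to 11 when 1 library was left out; the other settings gave 4 to 9. All loci called, 232, were 389 with DESeq2, 402 with sample quality weights, and 14 to 517 with 1 library left out. In shoot, the 1 member called was 3 with DESeq2 and 0 with all 12 libraries in one fit, and 0 to 2 with 1 library left out; all loci called, 229, were 367 with DESeq2, 370 with quality weights and 62 to 383 with 1 library left out. For the difference between tissues, 0 members became 1 with quality weights and 0 to 4 with 1 library left out; all loci called, 49, were 76 with edgeR, 177 with DESeq2, 102 with quality weights and 15 to 160 with 1 library left out. With the replicate number as a block the loci called were 441 in root, 376 in shoot and 110 for the difference between tissues, with 9, 1 and 1 members among them; the numbers are not known to pair the samples. Between mock tissues the 16 members called were 11 to 18 under all alternatives, and quantile scaling moved the median of all loci to 0.15, with 12 members higher in root and 5 in shoot. No called member changed direction under any alternative run. Depth limits the lowest members most, since Solyc01g090320 rested on 2 to 14 reads per PA root.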
